A study of Mus musculus with 4 samples.

Results

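The 9 genes described here mark or steer alternative macrophage activation: the markers Chil3, Chi3l1, Arg1, Mrc1 and Cd163, the receptor chain Il4ra, the cytokines Tgfb1 and Il10, and the nuclear receptor Pparg. They were found by gene name among 27670 names on the array, with Chil3 listed under its older name Chi3l3, and each had 1 probe of 60 bases. Of the 9, 8 passed a filter on dim probes that left 19117 names to test. Il10 did not pass it.

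Alternative activation is the state that macrophages take on when interleukin-4 or interleukin-13 binds a receptor containing the Il4ra chain and the transcription factor STAT6 is phosphorylated. In mice it is recognised by Chil3 and Arg1, and Pparg takes part in its fatty acid metabolism. Interleukin-10 and transforming growth factor beta drive related, anti-inflammatory states through STAT3 and SMAD proteins. In the brain, microglia, macrophages of the meninges and vessel walls, and blood cells that enter after injury can all express some of these genes, and several of them are also made by neutrophils, astrocytes or vessel cells.

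The study set RNA of male C57BL/6J mice, 8 to 12 weeks old, with permanent middle cerebral artery occlusion (PMCAO) against RNA of sham-operated mice on 2-colour oligonucleotide arrays. A nylon filament closed the artery in the PMCAO mice, while in sham mice the neck vessels were only exposed, and saline was injected into a brain ventricle of every mouse. Groups of 3 mice per arm were taken 24 h and 6 h after the injection, and each time was covered by 2 arrays with the dyes swapped, called sample 1 and sample 2. According to the design text the arrays carried the contralateral hemisphere, the side without the filament, whereas the label of each sample gives the tissue as brain.

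The groups were thus PMCAO at 24 h, sham at 24 h, PMCAO at 6 h and sham at 6 h, each in 2 arrays. Nothing in the labels says whether sample 1 and sample 2 hold separate RNA or how RNA of the 3 mice was combined, so the spread behind each p-value is that between arrays and may be technical. Spots well above background made up 66.3% to 73.7% of each PMCAO channel and 67.3% to 73.6% of each sham channel. All 10 neuron markers listed to check the brain label passed the filter, with a log2 summed intensity between 17.77 and 17.95 in every channel. All 4 arrays lay on 1 slide, so no slide effect could be tested. The number of arrays limits the precision of every value.

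The sequences that identify the 3 genes with the highest ratios at 24 h are the last 30 bases of their probes, 5′ to 3′, in lower case, shown with that of Chil4 (named Chi3l4 on the array), a near-identical relative of Chil3. Coordinates are the whole probe's span in build mm7, per the file headers.
Chil3, chr3:105965855-105965914, minus strand: atgcttgtttcttgctctcacaataaattc
Chil4, chr3:106022134-106022413: cattggaaagagtgctgatctcaatgtgga
Arg1, chr10:24669046-24669105, minus strand: tgaagtagacaagctggggattggcaaggt
Il4ra, chr7:121674181-121674240, plus strand: accagaagccagggctcctgggatgtggaa
Over the best ungapped alignment, the Chil4 probe shared 21 of 57 bases with the Chil3 probe. A search of the array covered only probes with short identical runs of bases in common with the Chil3 probe, and the most similar shared 31 of 56 bases. This compares probes with probes. Which transcripts each probe can bind was not tested, so signal of Chil3 and Chil4 may be shared and the split between them is uncertain.

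Upstream sequence from RefSeq (GRCm38.p6) was matched for 7 of the 9 genes, giving 9 promoters of 250 bases because Pparg has 3. Arg1 and Il10 had no entry. The promoter of Chil3, the gene with the highest ratio, is shown beside that of Mrc1, the promoter with the most matches, with every match to a searched motif in capitals.
Chil3, chr3:106167565-106167814, minus strand: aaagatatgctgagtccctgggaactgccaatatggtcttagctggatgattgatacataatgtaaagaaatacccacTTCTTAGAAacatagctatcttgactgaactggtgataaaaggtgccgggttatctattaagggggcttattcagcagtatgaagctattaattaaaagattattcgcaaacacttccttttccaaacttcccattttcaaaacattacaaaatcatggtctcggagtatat
Mrc1, chr2:14229164-14229413, plus strand: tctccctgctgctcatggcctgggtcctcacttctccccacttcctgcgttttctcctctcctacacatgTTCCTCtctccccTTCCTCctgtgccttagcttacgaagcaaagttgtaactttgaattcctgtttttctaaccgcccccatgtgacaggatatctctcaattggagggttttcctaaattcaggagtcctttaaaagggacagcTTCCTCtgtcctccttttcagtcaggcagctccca
The motifs were searched on both strands. The STAT palindrome TTCNNNGAA matched in Chil3, where its site TTCTTAGAA begins 172 bases before the start, and 7.02% of 32851 promoters of the same length held a match. The PU.1 core GAGGAA, a motif of the myeloid factor PU.1, matched 3 times in Mrc1 as its reverse complement TTCCTC, at 180, 167 and 35 bases before the start, and 1 time in Pparg, and 23.3% of promoters held it. No match to the STAT6 form, TTC and GAA with 4 bases between (5.85% of promoters), to the AP-1 motif TGANTCA (6.75%) or to the NF-kB motif, GGG and TTTCC with 2 bases between (1.41%), lay in these windows.

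Of the 8 genes tested, 6 were called higher in PMCAO than in sham brains at 24 h, and Il4ra alone at 6 h. Arg1, 1 of the 6, passed the filter only through the PMCAO arm at 24 h, where it is high, so its part in that count is no support. Among probes well above background in all 4 RNA groups, which leave Arg1 out, 5 of these genes were called at 24 h and 2 for the difference between the times. Of all 17281 genes under that filter, 1278 were called higher and 750 lower at 24 h, and 149 and 30 for the difference. Genes were called at a Benjamini-Hochberg adjusted p under 0.05 in limma's moderated test, fitted over all 19117 genes. At 24 h, 7.86% of all genes tested were called higher and 4.53% lower, against 6 of these 8 higher and 0 lower. At 6 h the share called higher was 0.816% and the share called lower 0.0366%, against 1 of 8 and 0 of 8. The median log2 ratio of the 8 genes was 0.83 at 24 h and 0.20 at 6 h, and that of all genes tested was 0.00 and -0.01. In bulk tissue, fewer cells of a type and less RNA per cell cannot be told apart, nor can more cells and more RNA per cell.

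**Figure D1:**
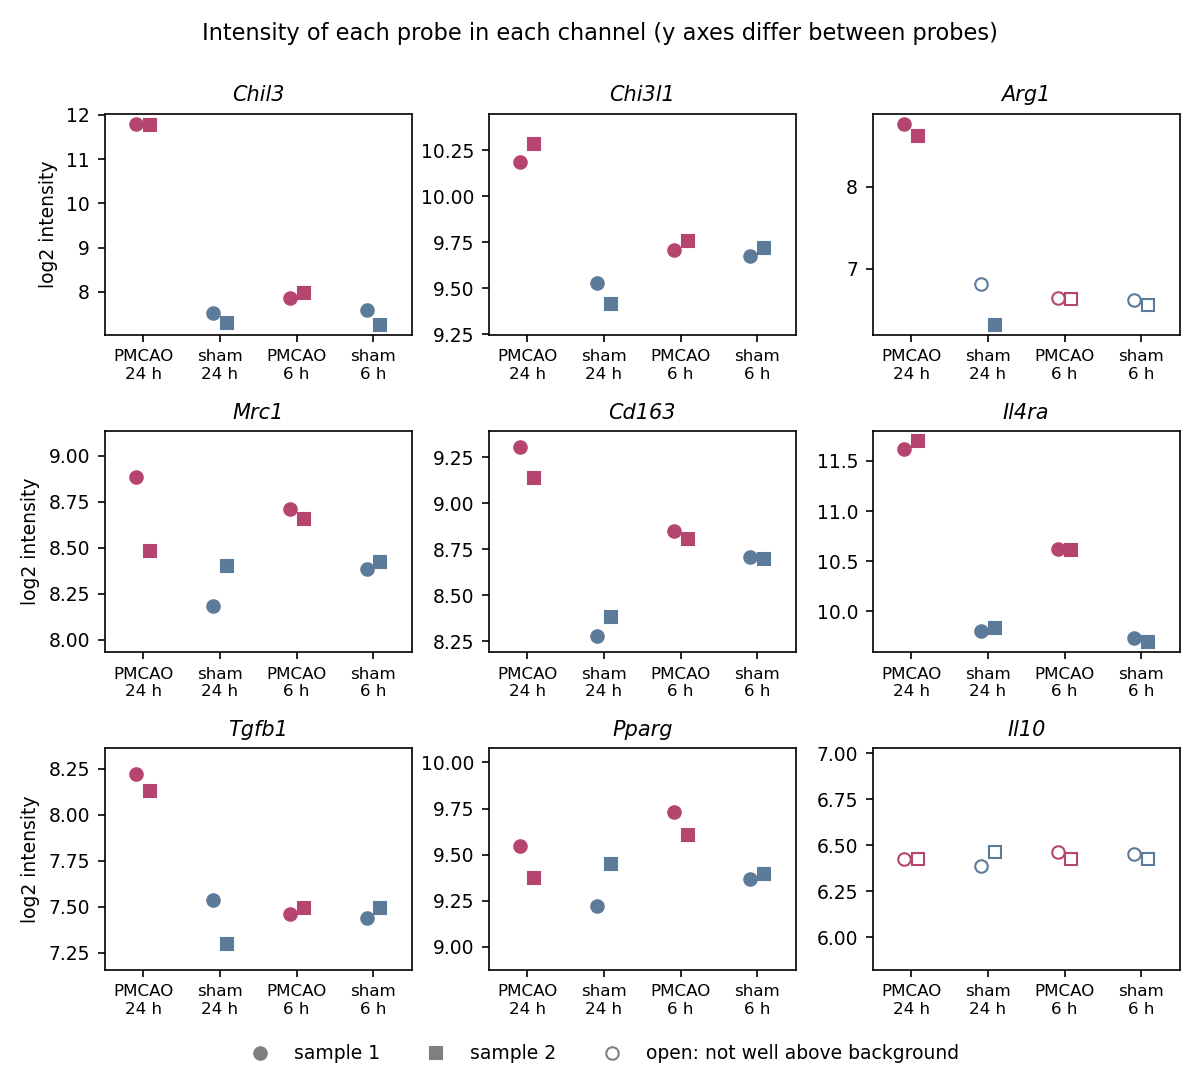
Log2 intensity of each gene's probe (y axis, 1 panel per gene, scales differ) in the PMCAO and sham channels at 24 h and 6 h; circles are sample 1, squares sample 2, and open symbols were not well above background. Chil3, Arg1 and Il4ra stand out in the PMCAO channels at 24 h, and all 8 Il10 symbols are open.

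Chil3 encodes a secreted chitinase-like protein, also known as Ym1, that mouse macrophages and neutrophils make. Its log2 intensity was 11.80 and 11.77 in the PMCAO channels at 24 h, against 7.53 and 7.31 in the sham channels. At 6 h it was 7.87 and 7.98 in PMCAO brains, against 7.60 and 7.26 in sham brains. The PMCAO channels at 24 h thus stood far above the other 6 channels, and at 6 h the arms did not overlap. The log2 ratio at 24 h was 4.37 ± 0.13 (model SE, n = 2 arrays), a 20.6-fold difference with an adjusted p of 0.000175 in limma, the fifth highest of all genes tested. With Agilent's processed signals in place of the intensities it was 4.91, and 5.01 from the size of the values in the authors' deposited table. At 6 h the log2 ratio was 0.50 ± 0.13, with arrays at 0.27 and 0.72 and an adjusted p of 0.275 in limma. Fitted alone, the arrays of 6 h gave that value an adjusted p of 0.000127 in limma. That fit drew its spread from these 2 arrays only and called 946 genes higher and 362 lower, against 156 and 7 as reported. With Agilent's processed signals the log2 ratio at 6 h was 0.99, with an adjusted p of 0.114 in limma.

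Chi3l1 (Chil1 in RefSeq) is a related chitinase-like glycoprotein that astrocytes as well as macrophages secrete. Its log2 intensity reached 10.19 and 10.28 in PMCAO brains at 24 h, against 9.53 and 9.41 in sham brains. The levels were 9.71 and 9.76 in PMCAO brains at 6 h, against 9.68 and 9.72 in sham brains. The arms were apart at 24 h and overlapped at 6 h. Chi3l1 was 1.70-fold higher at 24 h, with a log2 ratio of 0.76 ± 0.09 and an adjusted p of 0.00717 in limma. At 6 h the log2 ratio was 0.04 ± 0.09, with a 95% interval from -0.19 to 0.26.

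Arg1 encodes arginase 1, which turns arginine into ornithine and urea and so competes with nitric oxide synthase for arginine. Its probe read 8.77 and 8.62 in PMCAO brains at 24 h, against 6.82 and 6.32 in sham brains. Both PMCAO arrays were well above background at 24 h, while of the sham arrays only sample 2 was. At 6 h the levels were 6.65 and 6.63 in PMCAO brains and 6.62 and 6.56 in sham brains, not well above background in either arm, so no fold is given for that time. The fitted log2 ratio at 24 h was 2.13 ± 0.11 (adjusted p = 0.000446 in limma), against a sham level close to the background. Agilent's processed signals put it at 4.13 (adjusted p = 0.00696 in limma), so its direction was the same under both while its size was not settled, and no fold is given.

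Mrc1 and Cd163 are endocytic receptors of resident and alternatively activated macrophages. Mrc1 binds mannose-bearing glycoproteins, and Cd163 takes up haemoglobin bound to haptoglobin. Mrc1 read 8.88 and 8.48 in PMCAO brains at 24 h, against 8.19 and 8.40 in sham brains. The corresponding values at 6 h were 8.71 and 8.65 in PMCAO brains, against 8.39 and 8.42 in sham brains. The PMCAO values were above the sham values at both times, but the arrays of 24 h gave log2 ratios of 0.70 and 0.08. The mean of 0.39 ± 0.15 at 24 h did not pass the test (adjusted p = 0.171 in limma), with a 95% interval from 0.002 to 0.772. Without sample 2 of 24 h the log2 ratio was 0.70, which is that of the 1 array left. At 6 h the log2 ratio of Mrc1 was 0.28 ± 0.15 (adjusted p = 0.778 in limma).

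Cd163 stood at 9.30 and 9.14 in PMCAO brains at 24 h, against 8.28 and 8.38 in sham brains. At 6 h it stood at 8.85 and 8.80 in PMCAO brains, against 8.71 and 8.70 in sham brains. Both pairs of arms were apart, by more at 24 h. Cd163 was 1.85-fold higher at 24 h, with a log2 ratio of 0.89 ± 0.10 and an adjusted p of 0.00545 in limma, and its log2 ratio at 6 h was 0.13 ± 0.10 (adjusted p = 0.928 in limma). Macrophages at the borders of the healthy brain express both receptors, and Cd163 passed the test at 24 h while Mrc1 did not. The difference between the genes was not tested.

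**Figure D2:**
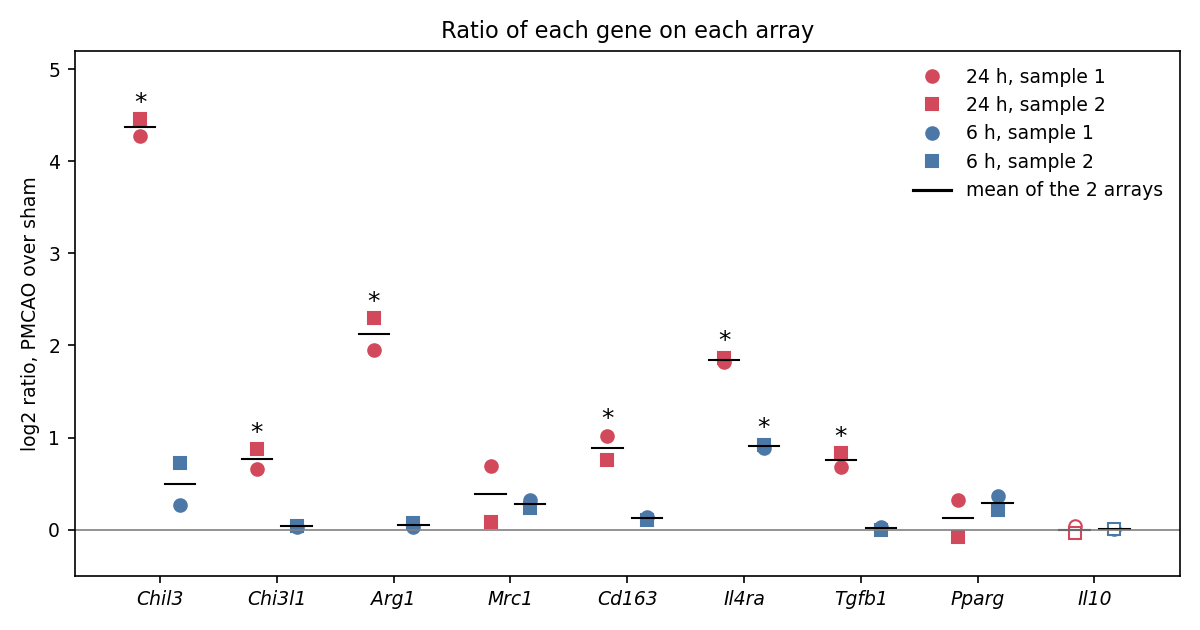
Log2 ratio of PMCAO over sham (y axis) of each gene (x axis) at 24 h (red, left) and 6 h (blue, right); circles are sample 1, squares sample 2, black lines the mean of the 2 arrays, and stars mark an adjusted p under 0.05. Stars stand over 6 genes at 24 h and over Il4ra at 6 h, and the open Il10 symbols were not tested.

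Il4ra, the chain shared by the receptors for interleukin-4 and interleukin-13, was the only gene of the 9 that was called higher at both times. Its log2 intensity was 11.62 and 11.70 in PMCAO brains at 24 h, against 9.80 and 9.83 in sham brains. At 6 h it was 10.62 and 10.62 in PMCAO brains, against 9.74 and 9.69 in sham brains. The 4 sham channels ran from 9.69 to 9.83, below all PMCAO channels. The log2 ratio was 1.85 ± 0.08 at 24 h, or 3.59-fold (adjusted p = 0.00027 in limma), and 0.91 ± 0.08 at 6 h, or 1.87-fold (adjusted p = 0.015 in limma). The call at 6 h was lost when sample 1 or sample 2 of 6 h was left out, with log2 ratios of 0.92 and 0.89. Each of these fits has 1 array at 6 h and takes its spread from the arrays of 24 h.

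Tgfb1, a cytokine that limits inflammation and is stored in a latent form, read 8.22 and 8.13 in PMCAO brains at 24 h, against 7.54 and 7.30 in sham brains. At 6 h it read 7.46 and 7.50 in PMCAO brains, against 7.44 and 7.50 in sham brains. The arms were apart at 24 h and overlapped at 6 h. The log2 ratio was 0.76 ± 0.09 at 24 h, or 1.69-fold (adjusted p = 0.00588 in limma), and 0.01 ± 0.09 at 6 h, with a 95% interval from -0.20 to 0.23. The Tgfb1 probe was printed in 10 spots per array, which show the precision within an array. Over 10 usable spots each, the arrays of 24 h gave 0.68 ± 0.07 and 0.83 ± 0.05 (SD over spots), and all of these spots lay between 0.56 and 0.94.

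Pparg, a nuclear receptor for fatty acids that controls lipid uptake genes, read 9.55 and 9.37 in PMCAO brains at 24 h, against 9.22 and 9.45 in sham brains. At 6 h it read 9.73 and 9.61 in PMCAO brains, against 9.37 and 9.39 in sham brains. The arms overlapped at 24 h and were apart at 6 h. The log2 ratio did not pass the test at 24 h (0.12 ± 0.12, 95% interval from -0.18 to 0.42, adjusted p = 0.575 in limma) or at 6 h (0.29 ± 0.12, -0.01 to 0.59, adjusted p = 0.6 in limma). Its probe also had 10 spots per array. At 24 h the spots of sample 1 averaged 0.32 ± 0.02 and those of sample 2 averaged -0.08 ± 0.02 (SD over 9 and 10 usable spots), so the arrays differed by more than their spots did.

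Il10, the anti-inflammatory cytokine that signals through STAT3, was not well above background in any channel of any array. Its log2 intensity was 6.43 and 6.43 in PMCAO brains at 24 h, against 6.39 and 6.46 in sham brains. At 6 h it was 6.46 and 6.43 in PMCAO brains, against 6.45 and 6.42 in sham brains. These levels have no order, and a difference in Il10 was not detectable on these arrays.

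**Figure D3:**
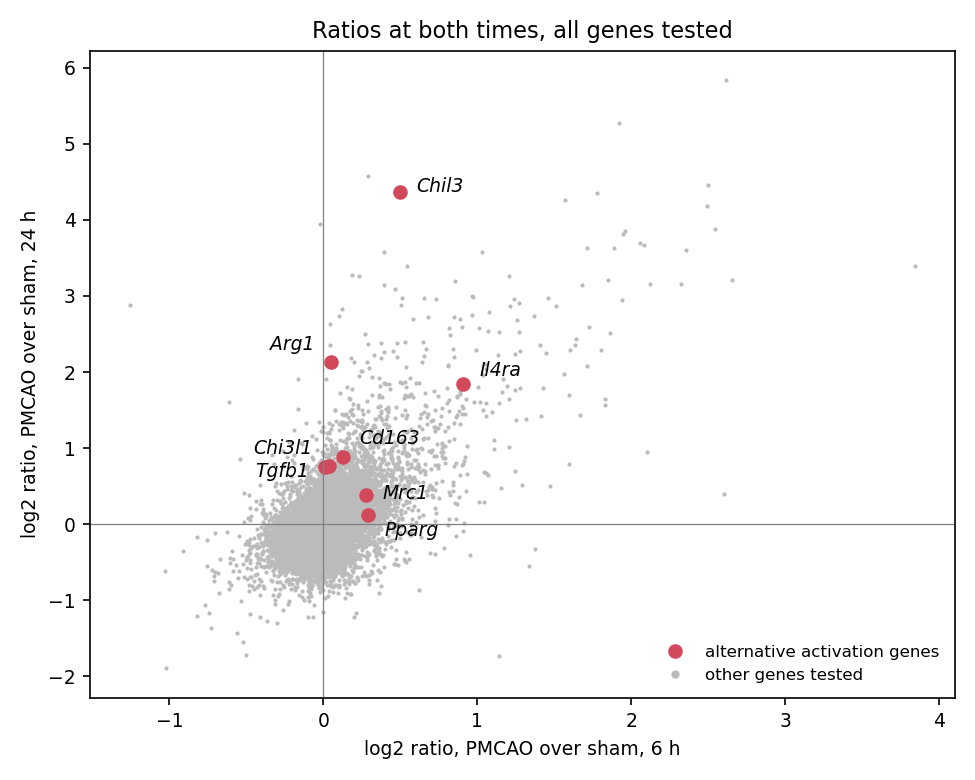
Log2 ratio of PMCAO over sham at 24 h (y axis) against 6 h (x axis), 1 point per gene tested (grey), with the 8 alternative activation genes in red. At 24 h Chil3 lies at 4.37 and Arg1 at 2.13, and at 6 h they lie at 0.50 and 0.05, where Arg1 was not well above background; Il4ra lies at 1.85 and 0.91.

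The PMCAO over sham ratio of Chil3 and Il4ra was higher at 24 h than at 6 h. In the same limma fit, the 24 h minus 6 h difference in log2 ratio was 3.87 ± 0.18 for Chil3 (adjusted p = 0.00363) and 0.94 ± 0.11 for Il4ra (0.0281). Arg1 passed too, at a fitted 2.08 (0.00958), but all its channels of 6 h were not well above background, so the size of its difference is not known. Among all genes tested, 1.30% had a higher and 0.303% a lower ratio at 24 h than at 6 h at that threshold. For Tgfb1, Chi3l1 and Cd163 the differences were 0.74 ± 0.12, 0.73 ± 0.13 and 0.76 ± 0.14, with adjusted p-values in limma of 0.0584, 0.0727 and 0.0754. These 3 genes were therefore called at 24 h without a called difference from 6 h. Over the alternatives in processing and arrays, their differences ran from 0.669 to 1.029, from 0.618 to 0.835 and from 0.627 to 0.896. Mrc1 differed by 0.11 ± 0.22 and Pparg by -0.17 ± 0.17, with 95% intervals from -0.43 to 0.65 and from -0.59 to 0.26.

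The call of Il4ra for the difference was lost when either array of 6 h was left out. Such a fit takes its spread from the arrays of 24 h, so it cannot show whether the arrays of 6 h disagree. Over the alternatives in processing and arrays the difference of Il4ra ran from 0.800 to 0.964. With Agilent's processed signals Chil3 kept its call for the difference, whereas Arg1 stood at 3.37 (adjusted p = 0.0817 in limma) and Il4ra at 0.86 (0.0896). Centring each array on its median in place of loess left log2 ratios of 1.71 for Il4ra and 2.16 for Arg1 at 24 h but only Chil3 past the test at that time, none at 6 h and none for the difference. With that scaling, 0 genes of the whole array were called at 6 h.

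Sham brains at 24 h were set against sham brains at 6 h to show how far that arm differed between the times. In limma's separate-channel model, 0 of the 8 genes passed the test, 2 had an unadjusted p under 0.05, and 5.30% of all genes tested were called. Cd163 was at -0.37 ± 0.09 in sham at 24 h over sham at 6 h (adjusted p = 0.0658) and Chi3l1 at -0.23 ± 0.08 (0.155). Cd163 ran from -0.443 to -0.281 over the alternatives in processing and arrays. Its sham channels read 8.28 and 8.38 at 24 h, against 8.71 and 8.70 at 6 h, and their part in the Cd163 ratio at 24 h was not tested. Chi3l1 ran from -0.3 to -0.04 and Mrc1 from -0.247 to 0.026 over the same alternatives. Arg1, near background in sham, stood at -0.26 without sample 1 and at 0.22 without sample 2 of 24 h, so its sign there depends on the array.

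The genes whose ratios lay nearest to those of the 3 genes with the highest ratios at 24 h were found by Euclidean distance over the 4 array log2 ratios. Chil3 had as neighbours Mmp3 (distance 0.451), Il11 (1.147) and Clec4d (1.351), which are a matrix protease, a cytokine of the interleukin-6 family and a myeloid lectin receptor. Mmp3 stood at 4.38 and 4.77 at 24 h, and at 0.13 and 0.44 at 6 h. Arg1 lay closest to the chemokine Ccl11 (0.232), the scavenger receptor Msr1 (0.254) and the interleukin-1 receptor antagonist Il1rn (0.339). The nearest to Il4ra were the secreted peptide gene Prok2 (0.199), the lactate transporter Slc16a3 (0.223) and the NF-kB inhibitor Nfkbia (0.263). Distances rest on 4 ratios, of which those of Arg1 at 6 h were measured at background, and describe these arrays alone.

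Other genes of the same pathways were counted in lists. The filter can let in a list gene through the PMCAO arm at 24 h alone, as it did Arg1. The list counts and medians were not repeated without such genes, so they are no independent support. Among IL-4 and IL-13 signalling genes other than Il4ra, 5 of 13 tested were higher and 0 lower at 24 h, with a median log2 ratio of 0.31. They were Il13ra1, the chain that pairs with Il4ra, at 1.28 ± 0.09 (adjusted p = 0.00133 in limma), the phosphatase Ptpn6 at 0.57 ± 0.10 (0.0249), Cish, Il2rg and Socs1. At 6 h 0 of the 13 passed in limma, with 2 at an unadjusted p under 0.05, and Il13ra1 was the 1 gene called for the difference. Il4, the ligand, was not well above background on any array.

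Other alternative activation markers had 11 of 15 tested higher and 1 lower at 24 h, with a median of 1.34. The decoy receptor Il1r2 stood at 2.58 ± 0.13 (adjusted p = 0.000449 in limma) and Msr1 at 2.18 ± 0.12 (0.000623), and the lower gene was the transcription factor Egr2. Alox15, Ccl22, Cd209a, Pdcd1lg2 and Retnla, the last a textbook partner of Chil3 and Arg1, were not well above background on any array. Ccl24, Klf4 and Ccl17 were called higher at 6 h, and 7 of the 15 had a higher and 1 a lower ratio at 24 h than at 6 h.

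Classical activation markers, genes that interferon gamma or bacterial products induce in macrophages, were higher as well, in 9 of 12 tested at 24 h with a median of 0.95. The cytokine Il6 stood at 3.09 ± 0.11 (adjusted p = 0.000198 in limma) and the chemokine Cxcl10 at 2.97 ± 0.17 (0.000695). Nos2, the enzyme that uses the same arginine as arginase 1, was not well above background on any array, nor were Il12b and Il23a. At 6 h Ptgs2 was the 1 gene of this list called. Genes of both activation states were thus higher at 24 h, and the lists were not tested against each other.

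**Figure D4:**
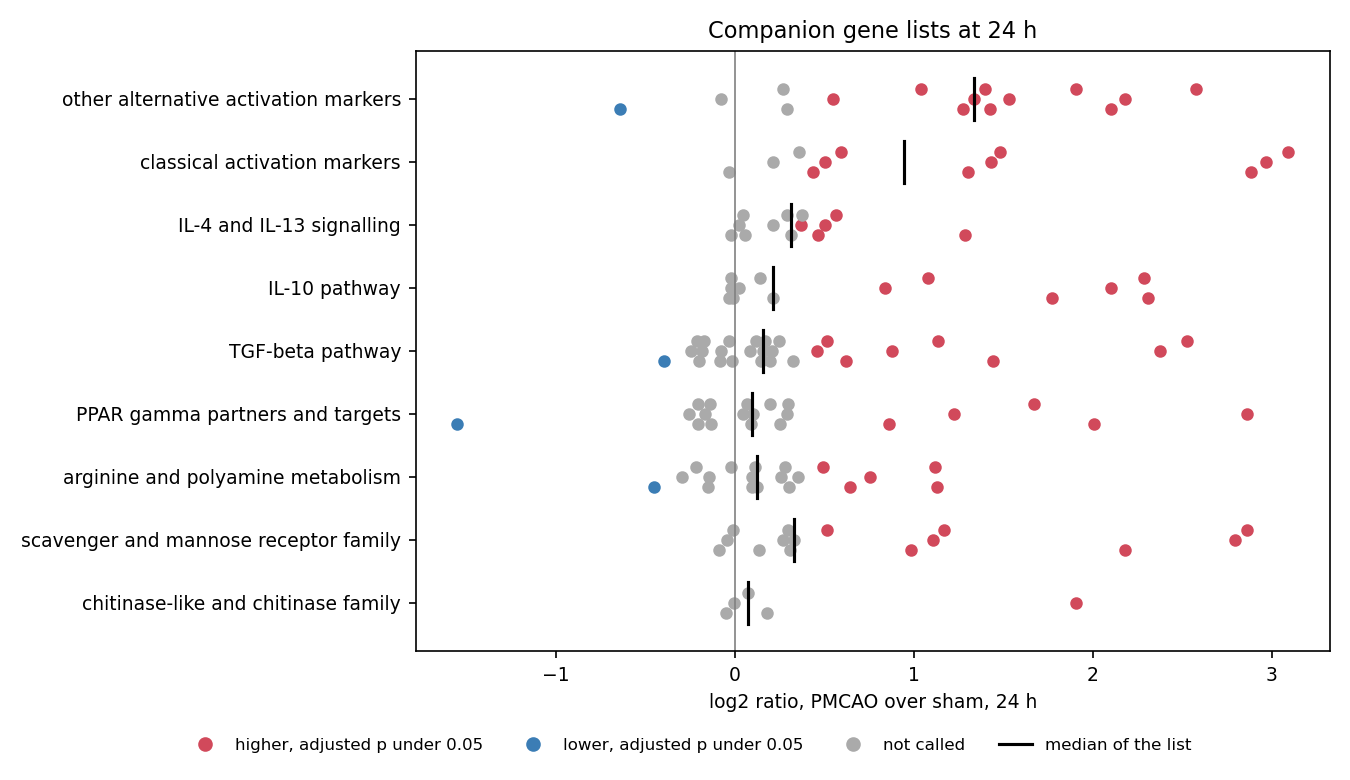
Log2 ratio of PMCAO over sham at 24 h (x axis) of each tested gene in 9 companion lists (rows, with points offset for visibility); red points were called higher, blue lower and grey not called, and black lines are list medians. The medians of the other alternative activation list (1.34) and the classical list (0.95) lie furthest to the right.

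Of the chitinase family, Chil4 was the 1 gene of 5 tested that was called at 24 h, at 1.90 ± 0.08 or 3.74-fold (adjusted p = 0.000279 in limma), with the uncertainty of its likeness to Chil3. Arginine and polyamine genes, which process the product of arginase, had 5 of 19 higher and 1 lower at 24 h, with a median of 0.13. The spermidine and spermine acetyltransferase Sat1 stood at 1.13 ± 0.11 (adjusted p = 0.00358 in limma), the ornithine decarboxylase Odc1 at 1.12 ± 0.09 (0.00169), and Amd1 was the lower gene. Scavenger and mannose receptor genes and their partners had 7 of 15 higher and 0 lower at 24 h, with a median of 0.33. The haem oxygenase Hmox1, which degrades the haem that Cd163 brings in, stood at 2.86 ± 0.08 (adjusted p = 0.000168 in limma), and haptoglobin, Hp, at 2.80 ± 0.12 (0.000241). Both were also called at 6 h.

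Among TGF-beta pathway genes, 8 of 27 were higher and 1 lower at 24 h, with a median of 0.16. Among them was Thbs1, a matrix protein that activates the latent cytokine, at 2.38 ± 0.09 (adjusted p = 0.000218 in limma), while Ltbp4, which binds the latent cytokine, was lower. Partners and targets of Pparg had 5 of 20 higher and 1 lower at 24 h, with a median of 0.10, although Pparg itself was not called. They included Angptl4 at 2.86 ± 0.14 (adjusted p = 0.000444 in limma) and the lipid droplet protein Plin2 at 2.01 ± 0.08 (0.000218), and the lower gene was the retinoid receptor Rxrg. In the IL-10 pathway 6 of 13 were higher and 0 lower at 24 h, with a median of 0.22. These included the nuclear regulator Bcl3 at 2.31 ± 0.11 (adjusted p = 0.000367 in limma) and the feedback inhibitor Socs3 at 2.29 ± 0.09 (0.000237), and Socs3 was the 1 gene of the list called at 6 h.

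Markers of other cell types moved at the same time. Neutrophil markers had 7 of 10 higher at 24 h, led by S100a9 at 5.84 ± 0.10 and S100a8 at 5.27 ± 0.10 (both adjusted p = 8.44e-05 in limma), and 3 of 10 at 6 h. The log2 of their summed intensity was 15.97 and 16.20 in PMCAO brains at 24 h, against 11.10 and 11.21 in sham brains, and 13.67 and 13.78 in PMCAO brains at 6 h, against 11.75 and 11.61 in sham brains. Such a sum is weighted towards bright markers. The median log2 ratio of the 10 tested was 1.21 at 24 h, with a lowest value of 0.13, and 0.18 at 6 h. One of the 12 markers on the array, Elane, was not well above background on any array. Neutrophils also make Chil3, and their part in its ratio was not tested.

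Pan-macrophage and myeloid markers had 6 of 11 higher and 0 lower at 24 h, with Cd14 at 3.88 ± 0.14 (adjusted p = 0.000198 in limma). Of the 11, 7 had a log2 ratio above 0, with a median of 0.65 and a lowest value of -0.34. The summed level of the list was 15.09 and 15.08 in PMCAO brains, against 14.36 and 14.45 in sham brains. Monocyte markers had 4 of 7 higher, with sums of 14.07 and 14.05 in PMCAO brains, against 13.51 and 13.53 in sham brains. At 6 h the monocyte sums were lower in PMCAO brains, at 13.83 and 13.82, against 14.09 and 14.10 in sham brains. Bright markers weigh most in a sum, and 6 of the 7 single log2 ratios at 6 h lay above 0. Their median was 0.045 and the lowest -0.31, with 0 called higher or lower. The sham sums of 24 h lay below those of 6 h. Of border-associated macrophage markers, whose cells express Mrc1 and Cd163, 4 of 10 were higher, with Pf4 at 1.45 ± 0.16 (adjusted p = 0.00583 in limma) and Lyve1 at 1.11 ± 0.12 (0.0049), and the sums were 12.91 and 12.77 in PMCAO brains, against 12.12 and 12.19 in sham brains. Of homeostatic microglia markers 7 of 12 were lower and 1, Sparc, higher at 24 h, while their summed levels overlapped, at 15.56 and 15.56 in PMCAO brains, against 15.51 and 15.59 in sham brains. P2ry12, their purine receptor, stood at -1.72 ± 0.17 (adjusted p = 0.00371 in limma) and Gpr34 at -1.37 ± 0.13 (0.00308). The part of these cell types in the ratios of the 9 genes was not tested.

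Reactive astrocyte markers, from a cell type that also expresses Chi3l1, were higher in 12 of 12 at 24 h and in 5 of 12 at 6 h, with sums of 15.92 and 15.87 in PMCAO brains at 24 h, against 13.97 and 14.09 in sham brains. Endothelial markers had 4 of 9 higher and 1 lower, meningeal and pericyte markers 2 of 8 higher, and red blood cell markers 1 of 3 higher at 24 h. Of lymphocyte markers 0 of 5 and of neuron markers 0 of 10 passed in limma at 24 h, each with 1 at an unadjusted p under 0.05. Cd3g, Cd79a and Cd8a, defining markers of T and B cells, were not well above background on any array. Their part in the ratios was not tested either.

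**Figure D5:**
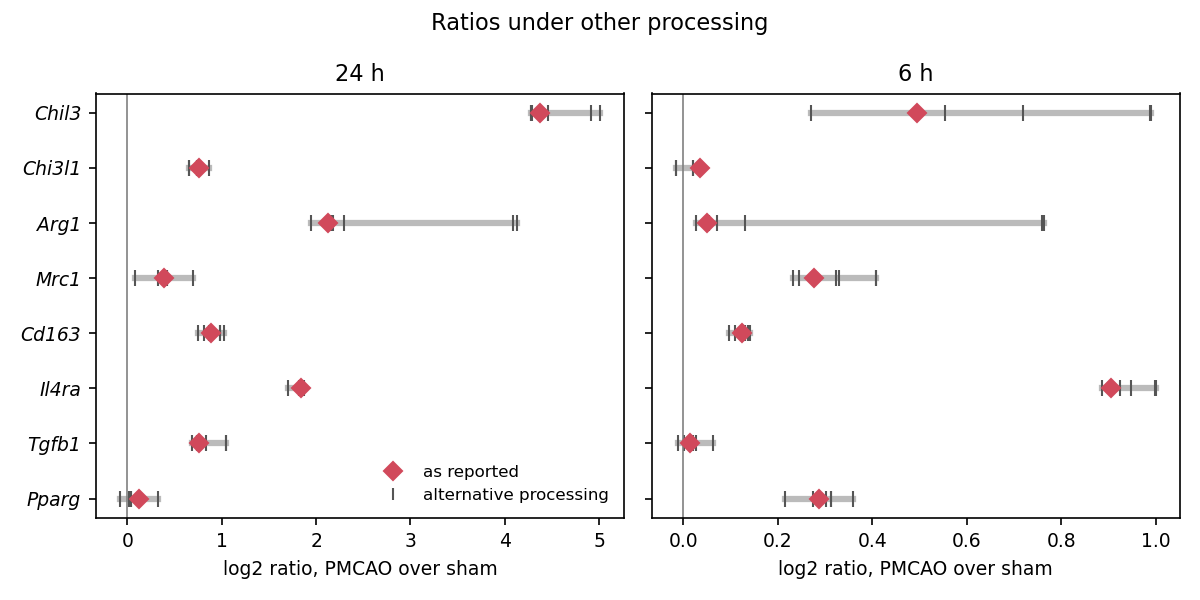
Log2 ratio of PMCAO over sham (x axis) of the 8 genes tested (rows) at 24 h (left) and 6 h (right), as reported (diamonds). Ticks, joined by grey bars, are the alternatives in processing and the fits with an array left out. The x scales differ between the panels, and Arg1 at 6 h was not well above background. Arg1 at 24 h spans 1.95 to 4.13 and Chil3 at 24 h 4.27 to 5.01. Pparg at 24 h spans -0.08 to 0.32 and falls below 0 only with an array left out.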

How the data were processed

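The authors deposited 4 scanner tables, 1 per array, written by Agilent Feature Extraction 9.5.3.1 according to the submitters' processing notes. They hold intensity values per spot and a log10 ratio (Cy5 over Cy3), per the file headers. That software also wrote processed signals, after its own background subtraction and dye normalisation. In the series table the authors deposited there is a signed score per probe. In size it matched processed Cy5 over Cy3 for 100% of probes (tolerance 0.006), it was negative throughout on sample 1 (medians -0.91 at 24 h and -0.96 at 6 h) and positive on sample 2 (0.95 and 0.96), and what the sign means and whether values were centred stayed unknown. PMCAO RNA carried Cy5 on sample 1 and Cy3 on sample 2, per the labels.

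Background was corrected on mean signals by normexp (offset 50), with loess normalisation in limma 3.58.1 under R 4.3.3, with control spots and outlier spots (112 to 142 of 43379 per array) at weight 0 and outliers then left out. All ratios were expressed as PMCAO over sham, spots of a probe averaged, and the brightest probe stood for its gene. Names came from a RefSeq table of GRCm38.p6 through accession (22951 probes), symbol (6659) or older symbol (3109), and 8455 of 41174 probes kept the name in the files. Testing required a probe measured on all 4 arrays and well above background on both arrays in 1 or more of the 4 RNA groups. A model of all 4 arrays gave a coefficient per time and their difference (2 residual and 3.54 prior degrees of freedom), without a dye term since orientation was balanced. Levels per channel are log2 intensities after Aquantile scaling, and sham was compared between times with a dye term and an intraspot correlation of 0.747. Intervals cover 95% at 5.54 degrees of freedom. The fits were tested on simulated arrays, and plots used matplotlib 3.10.9.

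The 9 genes and the 20 lists (257 genes) were chosen with earlier results of these data known, so their directions are no independent evidence. By the rule for names, all 9 genes are named throughout, with the 3 nearest genes of each member called at 24 h with a log2 ratio of at least 1, and up to 2 list genes per list with values. Other list genes are named beside their counts only. One gene that this rule names is not reported here. A sum over markers is the log2 of summed linear intensities of the brightest probe of each of the list's genes on the array. Alternatives covered normalisation, background, filter, probe choice, dye term, replicate block and leaving out each array.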

Additional observations from a re-analysis of the deposited data

Results flagged for a closer look

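For Chil3 and Il4ra the PMCAO over sham ratio differed between 24 h and 6 h in limma's test of the difference over all genes, and Arg1 passed it with a reservation. Chil3 differed by 3.87 on the log2 scale (adjusted p = 0.00363), with ratios of 4.28 and 4.46 on the arrays of 24 h against 0.27 and 0.72 on those of 6 h. Arg1 had a fitted difference of 2.08 (adjusted p = 0.00958), but its probe was not well above background in either arm at 6 h and it passed the filter only through the PMCAO arm at 24 h, so the size of the difference is not known. Il4ra differed by 0.94 (adjusted p = 0.0281), with 1.82 and 1.87 at 24 h against 0.89 and 0.92 at 6 h. With 2 arrays per group, no array could be examined as an outlier within its group.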

How the results depend on the processing

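Median centring in place of loess left 1 of the 6 genes called at 24 h, 0 of the 1 called at 6 h and 0 of the 3 called for the difference, and Agilent's processed signals left 1 for the difference. Over all genes the calls higher and lower were 14 and 0 at 24 h with median centring and 1243 and 1168 with processed signals, against 1503 and 866 as reported. For the difference, processed signals made 54 higher and 8 lower calls over all genes. Requiring signal above background in all 4 RNA groups left 5 genes called at 24 h, 2 for the difference and 1 at 6 h, without Arg1. Over all 17281 genes of that filter the calls were 1278 higher and 750 lower at 24 h. They were 149 and 30 for the difference, and 147 and 6 at 6 h. Fitting the arrays of each time alone called 2 of the 9 genes at 6 h, beside 946 higher and 362 lower calls over all genes. The sample number also marks the dye orientation: deviations from the group means correlated at 0.718 across genes between same-numbered arrays, but nothing in the labels pairs them. With sample number as a replicate block, 7 genes were called at 24 h (Mrc1 added) and 3 at 6 h (Chil3, Il4ra and Pparg). Over all genes that fit made 3919 higher and 3691 lower calls at 24 h. At 6 h it made 1141 and 581, against 156 and 7 as reported. For the difference it called 6 genes, among 1696 higher and 1538 lower calls over all genes, against 249 and 58 as reported. Leaving out an array leaves 1 array at its time, so counts of genes called in those fits are not given. For sham at 24 h over sham at 6 h, dropping the dye term gave 1 call among the 8 genes tested. The share of all genes called in that setting is not given here, so nothing is read from that count. An array left alone at its time is assumed to vary like the other time's pair, and its dye effect no longer cancels. Ratios that changed sign, none of them called as reported, were Chi3l1 at 6 h (-0.016 with processed signals) and Tgfb1 at 6 h (-0.010 with median centring). With an array left out, Pparg ran from -0.079 to 0.322 at 24 h and from -0.366 to 0.034 for the difference, and Mrc1 from -0.198 to 0.418 for the difference. For sham at 24 h over sham at 6 h, quantile normalisation gave 0.183 for Chil3, 0.178 for Arg1 and 0.012 for Tgfb1, no normalisation between arrays gave 0.018 for Chil3 and 0.113 for Pparg, and with an array left out Chil3 ran from -0.139 to 0.109, Arg1 from -0.262 to 0.216, Mrc1 from -0.247 to 0.026, Tgfb1 from -0.174 to 0.078 and Pparg from -0.132 to 0.044. The causes were not tested. Signal over background limits Arg1 outside the PMCAO arm at 24 h and Il10 throughout.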
